A study of Mus musculus with 2 samples.

Results

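The accessible sites described here are intronic peaks present in both of 2 single-cell chromatin accessibility libraries made from formalin-fixed, paraffin-embedded (FFPE) mouse spleen. The assay, scFFPE-ATAC, lets Tn5 transposase cut and tag open DNA inside nuclei taken from such a block, and each nucleus then gains its own combination of barcodes over rounds of splitting, ligation and pooling. The first library was prepared without density gradient centrifugation, the step that separates nuclei from debris, and the second in a 50 µL Tn5 reaction system. Both came from mice of the strain C57BL/6 J, 8 weeks old, of both sexes and with no allele or agent named in the labels, and whether they share a mouse or a block was not stated. Whether the 50 µL library had the gradient step was not stated either, so 2 preparation steps may differ between them. There was 1 library per condition, so nothing below was tested for significance and no p-value is given. Each list is a pool over all cells of its library, and a lower value in a bulk list cannot tell fewer cells of a type from less accessibility per cell. The number of reads behind the lists is unknown. On the 19 autosomes the list without density gradient centrifugation held 24863 peaks and the 50 µL list held 87358.

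A member was a 50 µL peak that overlapped a peak of the list without density gradient centrifugation by 1 bp or more, lay more than 3 kb from every annotated transcription start site (TSS), and had its summit, the position of highest pileup, inside a protein-coding gene but in no exon. There were 4744 such peaks among the 87358. The members were thus selected on their presence in both lists, and the presence itself is a description and not a finding. Of all autosomal 50 µL peaks, 23097 (26.4%) overlapped a peak of the other list, and of the 27752 intronic ones 4744 (17.1%) did. At the edge of the rule, members in Plxnc1, Shld1 and Pdcd4 lay 3001 to 3004 bp from a TSS, while peaks in Dtnb, Bicral and P2rx7 at 2999 or 3000 bp were left out. The smallest overlaps that counted were 2 bp in A430078G23Rik, 3 bp in Ablim1 and 6 bp in Rrp15, and peaks in Notch2, Pip5k1b and Cfap43 were left out with gaps of 2, 6 and 13 bp to the nearest peak of the other list.

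Introns hold many of the enhancers of blood cells. Enhancers are stretches of DNA where transcription factors bind and from which they raise transcription of a gene that can lie far away, often but not always the gene around them. Bound factors displace nucleosomes, and the DNA between them is then open to Tn5. Other intronic open sites bind CTCF, a zinc finger protein that, with cohesin, holds the bases of chromatin loops and is bound at many of the same places in most cell types. Spleen consists largely of B cells and T cells, with macrophages, dendritic cells, erythroid cells, stroma and endothelium. In B cells and myeloid cells PU.1, an ETS-family factor, and in all lymphoid cells RUNX factors bind such enhancers.

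The sequences of 4 members are printed first because CTCF, among all motifs searched, had the widest gap between members and other intronic peaks. They are the members with the highest fold enrichment without density gradient centrifugation among those with a CTCF match in the printed stretch, and were chosen after their values were seen. Each is the 150 bases around the 50 µL summit on the plus strand of mm10 (GRCm38, sequence from RefSeq), at chr6:119444263-119444412, chr8:94909031-94909180, chr8:106022638-106022787 and chr8:14952445-14952594, in introns 3, 4, 2 and 11 of the host genes. Capitals mark matches to any of the 18 motifs searched.
Wnt5b: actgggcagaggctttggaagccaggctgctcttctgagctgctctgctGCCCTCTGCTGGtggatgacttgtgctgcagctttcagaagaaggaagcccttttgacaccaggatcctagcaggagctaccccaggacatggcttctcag
Ccdc102a: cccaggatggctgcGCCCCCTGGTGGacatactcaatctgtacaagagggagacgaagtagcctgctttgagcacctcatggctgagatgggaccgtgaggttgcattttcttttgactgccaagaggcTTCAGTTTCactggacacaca
Dus2: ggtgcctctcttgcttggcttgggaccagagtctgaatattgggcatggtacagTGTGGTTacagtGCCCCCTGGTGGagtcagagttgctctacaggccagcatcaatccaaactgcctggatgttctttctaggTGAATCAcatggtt
Arhgef10: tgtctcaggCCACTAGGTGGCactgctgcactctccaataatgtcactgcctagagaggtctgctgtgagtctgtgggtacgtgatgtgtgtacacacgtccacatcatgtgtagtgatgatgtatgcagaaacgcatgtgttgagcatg
The match of 12 bases to the CTCF motif stands left of the middle in Wnt5b, Ccdc102a and Arhgef10 and spans the middle in Dus2, where it has a RUNX match (TGTGGTT) before it and an AP-1 match after it. Ccdc102a also holds an IRF match. Fold enrichment, a ratio which sets the pileup of reads at a summit against the background around it, was 10.7 without density gradient centrifugation and 5.75 in 50 µL for Wnt5b, 10.3 and 4.27 for Ccdc102a, 10.2 and 5.13 for Dus2, and 9.84 and 4.04 for Arhgef10. All 4 were higher without density gradient centrifugation, which was part of how they were chosen.

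The next sequences are members in genes of the blood cell and leukocyte signalling lists described below. Each is the most significant 50 µL member in its gene, with its 150 bases around the summit. Flt3, the receptor of a cytokine that dendritic cells need, had its site in intron 23 of 23 (chr5:147331754-147331903). Mrc1, the mannose receptor of macrophages, had it in intron 15 of 29 (chr2:14295498-14295647). Ebf1, a factor that establishes the B lineage, had it in intron 5 of 15 (chr11:44633154-44633303), a member shown after its values were seen. Tox, a factor of developing and exhausted T cells, had it in intron 1 of 8 (chr4:6924899-6925048), and Sipa1l1, a Rap GTPase-activating protein, in intron 4 of 22 (chr12:82350267-82350416).
Flt3: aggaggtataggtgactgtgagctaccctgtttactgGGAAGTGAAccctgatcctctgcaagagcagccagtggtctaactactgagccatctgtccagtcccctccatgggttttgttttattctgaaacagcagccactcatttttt
Mrc1: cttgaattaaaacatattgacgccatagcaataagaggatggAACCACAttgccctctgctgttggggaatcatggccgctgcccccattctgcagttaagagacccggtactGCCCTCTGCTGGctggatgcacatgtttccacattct
Ebf1: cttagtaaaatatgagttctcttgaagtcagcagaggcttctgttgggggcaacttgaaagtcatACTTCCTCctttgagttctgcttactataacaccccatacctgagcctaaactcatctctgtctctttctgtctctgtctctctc
Tox: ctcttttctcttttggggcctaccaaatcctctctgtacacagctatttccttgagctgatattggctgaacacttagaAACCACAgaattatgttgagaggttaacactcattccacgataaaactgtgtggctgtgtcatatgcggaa
Sipa1l1: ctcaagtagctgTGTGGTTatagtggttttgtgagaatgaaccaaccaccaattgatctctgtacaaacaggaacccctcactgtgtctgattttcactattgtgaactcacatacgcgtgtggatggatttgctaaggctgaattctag
The capitals mark an ETS-IRF composite (GGAANNGAA) in Flt3, a RUNX and a CTCF match in Mrc1, a PU.1 match (GAGGAAGT, read here from the other strand) in Ebf1, and RUNX matches in Tox and Sipa1l1. Fold enrichment was 8.30 without density gradient centrifugation and 6.39 in 50 µL for Flt3, 6.38 and 8.70 for Mrc1, 4.75 and 4.66 for Ebf1, 4.91 and 4.52 for Tox, and 6.27 and 6.03 for Sipa1l1. Of these 5, only Mrc1 was higher in 50 µL, and of all members 80.3% were higher without density gradient centrifugation.

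Across all members, fold enrichment ranged between 2.64 and 16.7 with a median of 5.06 without density gradient centrifugation, and between 1.79 and 11.5 with a median of 4.02 in 50 µL. The significance that MACS2 assigned, as −log10 q, had medians of 9.47 without density gradient centrifugation and 26.0 in 50 µL. The peaks themselves were 275 bp wide in the median without density gradient centrifugation and 470 bp in 50 µL. Fold enrichment was the higher without density gradient centrifugation in 3808 members (80.3%), with a median ratio of 1.26, while −log10 q and width had the higher medians in 50 µL. Fold enrichment, −log10 q and width all depend on the number of reads, whose part in these differences was not tested. A member also had to be called in the shorter list, without density gradient centrifugation. What this selection does to the comparison of its fold enrichments, here and in single genes below, was not tested. The 2 summits of a member lay 44 bp apart in the median, and 2638 members (55.6%) had them within 50 bp. Across members, Spearman's rho between the 2 fold enrichments was 0.43, against 0.57 over 10415 promoter peaks found in both lists (within 1 kb of a TSS) and 0.46 over 4823 such intergenic peaks. These points share their libraries and are not independent replicates. Those promoter and intergenic peaks also had the higher median fold enrichment without density gradient centrifugation. It was 5.47 against 4.48 in 50 µL at promoter peaks and 5.32 against 4.25 at intergenic peaks.

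**Figure D1:**
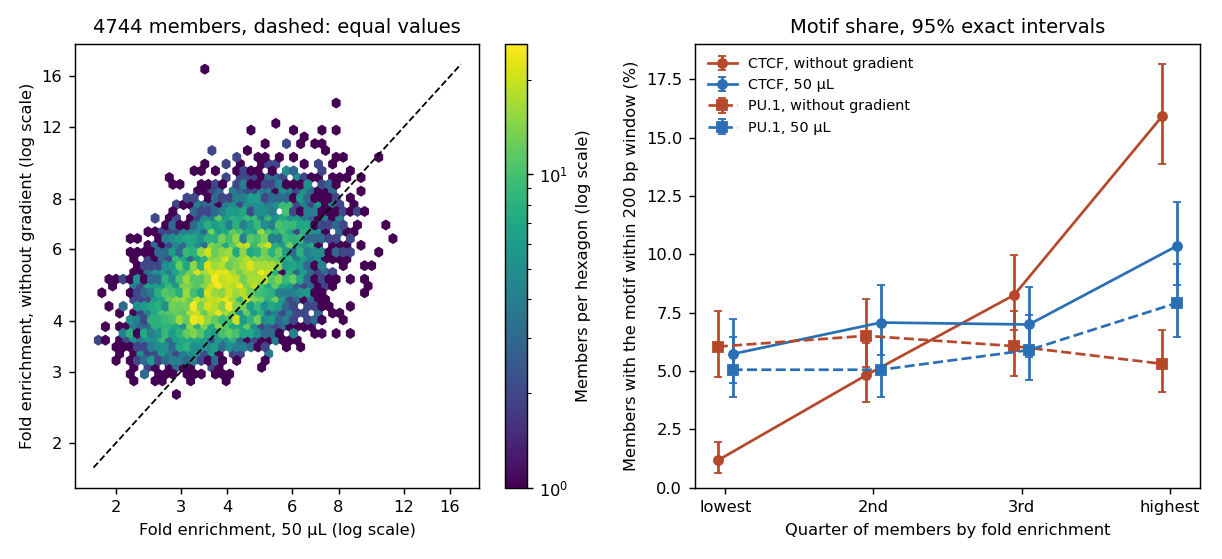
Fold enrichment of the 4744 members (left, both axes on a log scale, colour for members per hexagon) and the share of members with a CTCF or PU.1 match within 200 bp in 4 equal classes by fold enrichment in each list (right, points with exact 95% intervals). Most members lie above the dashed line of equal values, and the CTCF share runs up to 15.9% in the highest class without density gradient centrifugation, against 10.4% in the highest class of 50 µL.

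The members were the strong end of the intronic 50 µL peaks. The 23008 intronic peaks of the 50 µL list alone had a median fold enrichment of 3.04, a −log10 q of 9.94 and a width of 276 bp, against the members' 4.02, 26.0 and 470 bp. With all 50 µL peaks cut into 10 equal classes by −log10 q, 73.2% (920 of 1256) of the intronic peaks of the top class were members, then 55.3%, 37.7% and 24.2% in the next 3, down to 1.36% (47 of 3461) in the last. In each of the 10 classes the share found in both lists was smaller for intronic than for promoter peaks. In the top class it was 73.2% (exact 95% interval 70.7 to 75.7%) against 92.3% (91.5 to 93%), and in the next 55.3% against 73.6%. Peaks of 1 pair of libraries are not replicates, and nothing was tested. The intergenic shares there were 76.8% (74.5 to 78.9%) and 58.8%. These intervals, like all below, cover counting error only. By chromosome the share found in both ran from 14.1% on chromosome 9 (12.4 to 16%) to 20.0% on chromosome 10 (18 to 22.1%). These are the lowest and the highest of all autosomes, picked after the values were seen. Nothing is read from the gap between them.

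Counted from the list without density gradient centrifugation, 5169 of its 24863 peaks (20.8%) were intronic by the same rule, and 4816 of these (93.2%) overlapped a 50 µL peak. In the whole 50 µL list the intronic share was 31.8%. With only the 10000 most significant peaks of each list it was 15.7% without density gradient centrifugation and 15.1% in 50 µL, and with the top 1000 it was 7.80% and 8.90%, so the difference between the whole lists was not seen among their strongest peaks.

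The most significant members stood in genes of diverse function. Among the leading ones without density gradient centrifugation was a site in intron 4 of Acod1, the enzyme that makes itaconate in activated macrophages, with a fold enrichment of 13.5 without density gradient centrifugation and 7.78 in 50 µL. Mrps27, a mitochondrial ribosomal protein gene, had 11 without density gradient centrifugation and 7.01 in 50 µL, and Dnah11, an axonemal dynein, 11.3 and 6.53.

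In 50 µL the most significant member was in intron 8 of Bcr, a GTPase-activating protein, with a fold enrichment of 8.41 without density gradient centrifugation and 9.24 in 50 µL. It was followed by intron 2 of Cd48, a surface receptor of leukocytes, with 7.71 and 7.66, and by a site in Wfdc1 with 6.38 without density gradient centrifugation and 11.5 in 50 µL. Of the 10 leading members of each list only the Mrps27 site was in both sets. Other leaders were in Camk2d, Mdn1, Tmem56, Arhgap26 and Top2b without density gradient centrifugation, and in Arhgef33, Foxp4, Tnr, Fgfr2, Gm17655 and Cpsf2 in 50 µL.

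Grouped by host gene, the members fell in 2786 protein-coding genes, 18.4% of the 15149 with any intronic base that the rule could accept. A single member was found in 1766 of them, 2 in 552 and 3 or more in 468, and these 468 genes held 1959 of the members. Only 14 genes had 10 or more. Host genes were long: they held a median of 52.3 kb of such eligible intron, against 10.8 kb in the other genes, and the share of genes with a member was 2.00% under 5 kb of eligible intron, 24.2% between 20 and 50 kb, 47.1% between 100 and 300 kb and 36.7% above 300 kb. Length alone thus did not order the genes at the upper end. A promoter peak in the 50 µL list was present in 84.4% of host genes and 92.1% of those with 3 or more members, against 58.6% of the other genes, and in the list without density gradient centrifugation the shares were 64.9%, 72.2% and 46.3%.

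The highest counts were partly those of gene models. Gm20388, a model on chromosome 8 with 28 members, and Gm37240 with 11 are read-through annotations that span many genes, and none of their members lay within a principal transcript of that gene. All 15 members assigned to Fgfr2 lay outside the span of its principal transcripts, in an intron of a longer transcript that runs over other genes, and 6 of them were also inside Oat, Lhpp or Fam53b. In all, 4380 members (92.3%) lay within a principal transcript that is no read-through, and 128 had 2 or more host genes. Next came Prkce, a protein kinase C, Lpp, a focal adhesion protein, Arid1b, a subunit of SWI/SNF chromatin remodelers, and Ptk2b with 14 members each, and Pde4d, a cAMP phosphodiesterase, and Rasgef1b with 12 (all 12 of Rasgef1b outside its principal transcripts). Akap13 and Rad51b had 11, Agbl4, Cblb and Xylt1 had 10, and Rere had 9.

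Ptk2b had the highest density among host genes with 5 or more members. It encodes PYK2, a tyrosine kinase that relays calcium and integrin signals in leukocytes. Its 14 members in 101 kb of eligible intron (13.9 per 100 kb, against 0.663 over all protein-coding genes) took 14 of its 21 intronic 50 µL peaks and all 14 of its intronic peaks without density gradient centrifugation. Fold enrichment over them had a median of 4.28 without density gradient centrifugation, with 3.47 the lowest and 8.77 the highest, and a median of 3.02 in 50 µL, with 2.16 the lowest and 4.01 the highest. Each of the 14 was higher without density gradient centrifugation, as were 80.3% of all members, with the largest ratio in the gene at 2.26. The strongest site without density gradient centrifugation, in intron 10 of 29 at 8.77 against 3.88 in 50 µL, lay 105040 bp from the gene start, while the most significant site in 50 µL, in intron 1, lay 16047 bp from it with 4.89 and 3.97.

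After Ptk2b in density stood Cytip, an adaptor that regulates integrin adhesion of lymphocytes, with 13.3 members per 100 kb (2 of its 5 members lay within a principal transcript), and Rasgrp3, a Ras exchange factor of B cells, with 9.57. Mdfic followed with 9.14, Fam69a with 8.92, Ccdc88c with 8.82, Csnk1g3 with 7.42, Rapgef1 with 7.21, Mta3, a NuRD subunit known from germinal centre B cells, with 7.09, and Ikzf1 with 6.90. In Rasgrp3 all 7 intronic peaks without density gradient centrifugation and 7 of 12 in 50 µL were members. Their fold enrichment was between 3.28 and 6.98 without density gradient centrifugation and between 2.84 and 5.17 in 50 µL. Of its members, 4 were in intron 1, 2 in intron 9 and 1 in intron 13.

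**Figure D2:**
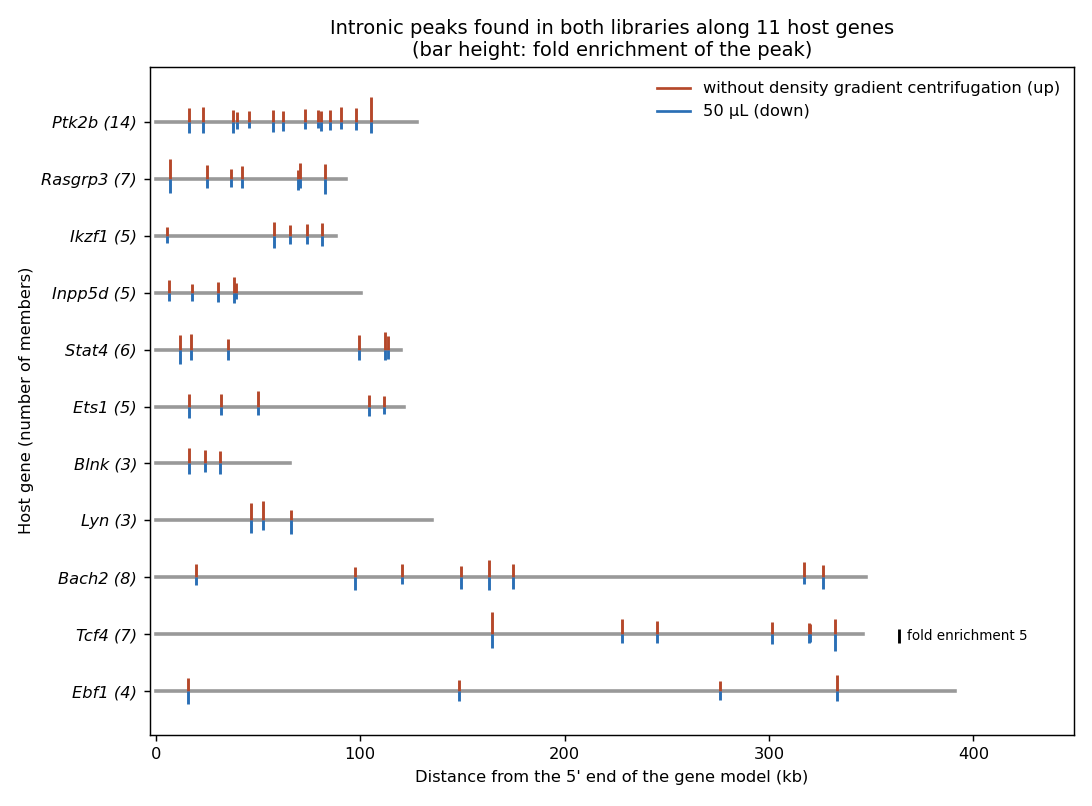
Members along 11 host genes, by distance of the summit from the 5' end of the gene model in kb, with bar height for the fold enrichment without density gradient centrifugation (up) and in 50 µL (down), the grey line the gene model and the number of members in brackets. Ptk2b carries 14 members along most of its length, while the 5 of Inpp5d stand in introns 1 and 2 and the 7 of Tcf4 in its downstream part.

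Members lay in first introns in 29.1% of cases (1382 of 4744, 27.8 to 30.4%), in the second intron in 17.3% and in the third or a later one in 53.6%. The intronic peaks of the 50 µL list alone gave 29.6%, 16.9% and 53.5%, and first introns held 24.4% of the eligible bases. The share in first introns thus differed by less than counting error between the members and the other intronic peaks. The median distance to the nearest TSS was 11208 bp for members and 11520 bp for the others, and 17.4% of members lay 3 to 5 kb from a TSS, against 15.1% of the others. The most distant member was 298364 bp from any TSS. Another member lay within 5 kb for 566 of the 4744 (11.9%).

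For the genes of 12 lists written from textbook knowledge, the share of genes with a member and the members per 100 kb of eligible intron are given, beside 18.4% and 0.663 over all protein-coding genes. The lists were chosen with earlier results of these data known. Members were found in 19 of 29 B cell genes with eligible intron (65.5%, 45.7 to 82.1%), with 36 members or 2.00 per 100 kb. In T cell genes they were found in 12 of 32 (37.5%, 21.1 to 56.3%), with 16 members or 0.640 per 100 kb. Transcription factors shared by blood lineages had 65 members in 23 of 33 genes (1.94 per 100 kb). Signalling genes of leukocytes had 69 in 24 of 33 (1.39 per 100 kb). The lists were not matched for length. Median eligible intron was 82.7 kb in shared factors and 81.5 kb in signalling genes, against 14.8 kb over all genes. All intronic 50 µL peaks were dense there too, at 15.4 per 100 kb in B cell genes and 13.3 in shared factors, against 3.89 over all genes. They were also denser in T cell and signalling genes.

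Among the smaller lists, dendritic cell genes had 12 members in 5 of 12 genes (2.64 per 100 kb), macrophage and monocyte genes 8 in 6 of 24 (1.11), erythroid genes 5 in 4 of 16 (0.909), endothelial and stromal genes 6 in 6 of 22 (0.597), megakaryocyte genes 2 in 2 of 7 (0.476) and NK and cytotoxic genes 1 in 1 of 11 (1.01). The last 2 lists served as contrast. Broadly expressed large genes had 38 members in 15 of 27 (0.442 per 100 kb), and large neuronal genes 14 members in 7 of 30, which at 0.0395 per 100 kb was the lowest density of the 12. The lists overlap. The only member of the NK and cytotoxic list is that of Txk, which is counted in the T cell list too. The 4 members of Fli1 are likewise counted in both the shared factor and the signalling list.

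**Figure D3:**
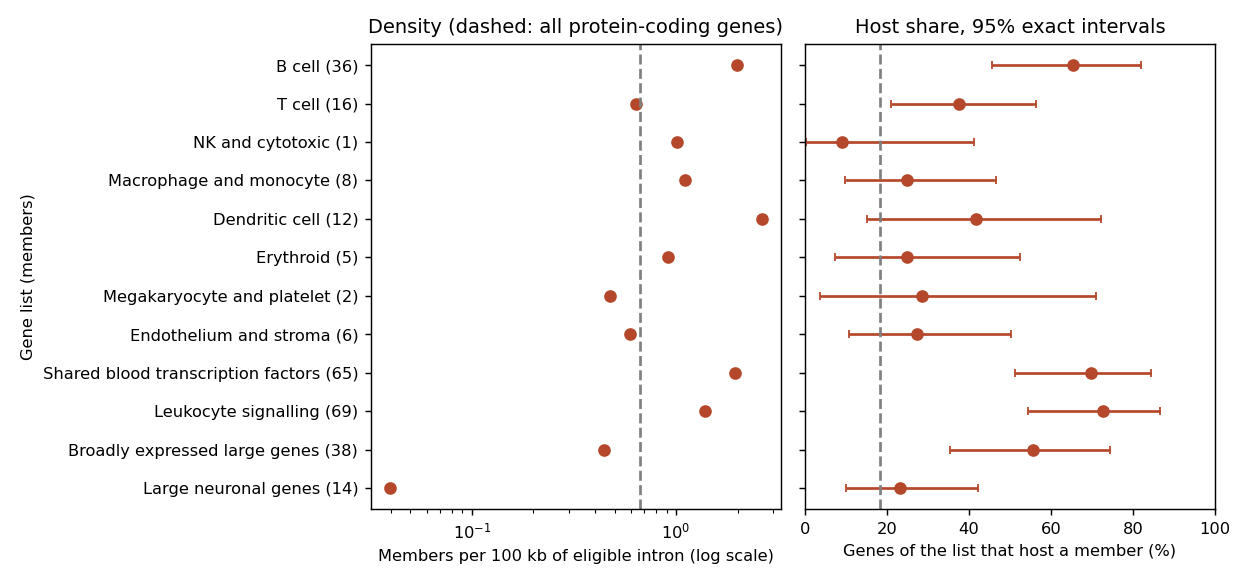
Members per 100 kb of eligible intron on a log scale (left) and share of the genes of each list that host a member with exact 95% intervals (right), for 12 gene lists with the number of members in brackets, and all protein-coding genes as dashed lines (0.663 per 100 kb and 18.4%). B cell, dendritic cell, shared blood factor, leukocyte signalling, macrophage and monocyte, NK and cytotoxic, and erythroid lists lie right of the dashed line in density. Large neuronal genes lie far left.

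In B cell genes the members were spread over factors, receptors and kinases. Bach2, a repressor that holds B cells and T cells in undifferentiated states, had 8 of the 53 intronic 50 µL peaks of the gene. Its fold enrichments were 4.53, 3.72, 4.57, 3.91, 5.93, 4.55, 5.29 and 4.49 without density gradient centrifugation, against 2.87, 4.43, 2.36, 4.13, 4.47, 4.19, 2.45 and 4.00 in 50 µL, in genome order. The first was in intron 1, the next 5 in intron 2, which spans 100130 bp, and the last 2 in introns of another transcript of the gene. Of the 8, 2 were higher in 50 µL.

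Ebf1 had 4 members among 45 intronic 50 µL peaks, with 4.75, 4.04, 3.62 and 5.70 without density gradient centrifugation, against 4.66, 3.36, 3.08 and 3.36 in 50 µL. Blnk, an adaptor under the B cell receptor, had 3 of 10, at 4.49, 4.79 and 5.59 without density gradient centrifugation, against 3.65, 3.12 and 3.62 in 50 µL. The kinase Lyn had 3 of 22, at 6.15, 6.93 and 3.74 without density gradient centrifugation, against 4.48, 3.53 and 4.82 in 50 µL. Every member of Ebf1 and Blnk was higher without density gradient centrifugation, as were 80.3% of all members, and in Lyn the last was higher in 50 µL.

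Other B cell genes had 1 or 2. Pax5, which keeps the B cell identity, had 1 of its 22 intronic 50 µL peaks in both lists, in intron 6 of 9 with 5.83 without density gradient centrifugation and 5.08 in 50 µL. Prdm1, the master factor of plasma cells, had 2, at 4.33 and 4.63 without density gradient centrifugation, against 4.47 and 3.92 in 50 µL. Of other defining B cell markers, Cd79a and Cd79b had no eligible intron and Ms4a1 and Cd22 no intronic 50 µL peak, and Ikzf3 had 8 intronic 50 µL peaks of which none was found in both.

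T cell genes were hosts less densely. Camk4, a calcium-dependent kinase, Tox, Lef1, a Wnt effector of T cells, and Cd247, the zeta chain of the T cell receptor, had 2 members each. Lef1 had both in intron 11 of 11, at 4.95 and 5.09 without density gradient centrifugation, against 4.43 and 2.53 in 50 µL. The 2 of Cd247, at 5.06 without density gradient centrifugation for both and 2.78 and 2.31 in 50 µL, overlapped the same peak of the list without density gradient centrifugation, as did 36 members in all that share a partner. Of 174 intronic 50 µL peaks in T cell genes 16 were members (9.20%, 5.35 to 14.5%), and of 278 in B cell genes 36 were (12.9%, 9.24 to 17.5%), against 17.1% over all intronic peaks. Among those in the top 3 of the 10 classes of significance it was 7 of 40 (17.5%, 7.34 to 32.8%) in T cell genes, 25 of 63 (39.7%, 27.6 to 52.8%) in B cell genes and 51.6% over all genes. Since presence in both lists is what the rule used, nothing is read from these shares.

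Among factors shared by blood lineages, Foxp1, Stat4 and Cux1 had 6 members each (4 of those of Cux1 within a principal transcript), and Ikzf1 and Ets1 had 5. Ikzf1 (Ikaros), needed for lymphoid development, had 3.21, 4.68, 3.80, 4.05 and 4.62 without density gradient centrifugation, against 2.39, 4.25, 2.96, 2.73 and 3.51 in 50 µL, in introns 1, 3, 4, 6 and 7 of 7. Ets1, an ETS factor of lymphocytes, had 4.44, 4.23, 5.49, 4.14 and 3.55 without density gradient centrifugation, against 4.14, 2.88, 3.02, 3.43 and 2.47 in 50 µL, and 2 of the 5 lay within a principal transcript. All 10 were higher without density gradient centrifugation, as were 80.3% of all members.

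Stat4, which transmits interleukin-12 signals, had 6 of its 15 intronic 50 µL peaks and all 6 of its peaks without density gradient centrifugation, at 5.05, 5.49, 3.88, 5.07, 6.08 and 4.90, against 5.13, 3.72, 3.68, 3.56, 3.71 and 3.20 in 50 µL. Foxp1 had 6 of 86, and 3 of these lay in the overlapping model Gm20696 outside Foxp1's principal transcripts. Runx1 and Runx2 had 1 member each, among 27 and 20 intronic 50 µL peaks, and Runx3, Erg and Foxo1 had none. Of the other genes that the paper names for spleen cells, Tcf7l2 had 2 members and Etv1 had 1.

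In signalling genes, Inpp4b, a phosphatase of phosphoinositides, and Elmo1, a partner of DOCK2 in cell migration, had 9 members each, and Inpp5d (SHIP1), Sipa1l1 and Prkcb had 5. Of the 9 in Inpp4b only 1 lay within a principal transcript. Those of Elmo1 were between 3.44 and 5.63 without density gradient centrifugation and between 2.49 and 3.84 in 50 µL, and 5 of them stood in intron 1. Of the dendritic cell genes, Tcf4, the E protein of plasmacytoid dendritic cells, held 7 of the 12 members, at a median of 4.6 without density gradient centrifugation and 3.00 in 50 µL. It is also expressed in B cells. Zbtb46 and Itgax had 1 each.

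Mrc1 held 3 of the 8 macrophage members, at 5.33, 4.46 and 6.38 without density gradient centrifugation, against 4.97, 5.12 and 8.70 in 50 µL, and Msr1, Tlr4, Sirpa, Spi1 and Csf2rb had 1 each, that of Tlr4 outside its principal transcripts. Vwf, a clotting factor of endothelium and platelets, had 1 at 8.28 without density gradient centrifugation and 5.57 in 50 µL. The large neuronal genes with members were led by Kcnma1, a potassium channel, with 5 of its 6 intronic 50 µL peaks, at 7.18, 6.91, 7.11, 6.12 and 4.52 without density gradient centrifugation, against 8.17, 3.83, 4.24, 4.08 and 3.23 in 50 µL. Among broadly expressed large genes Wwox had 6 of 50.

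Members were poorer in repeats than the other intronic peaks. In 200 bp windows around the 50 µL summit, 15.6% of the members' bases were soft-masked as repeats, against 30.4% in intronic peaks of the 50 µL list alone and 25.2% at 9009 windows 2 kb away from a member's summit and outside peaks. The shares were 8.10% at promoter peaks and 17.1% at intergenic peaks found in both lists. Members held 2.58 CpG per window, against 1.88, 2.1, 12.3 and 3.33 in those sets. The repeat share of members was between 14.7 and 17.1% in 4 equal classes by −log10 q in 50 µL, lowest in the least significant class. Members whose 200 bp window was over 50% GT or CA repeat numbered 10 (0.211%), against 165 (0.717%) of the intronic peaks of the 50 µL list alone, and the 10 members had a median fold enrichment of 4.65 without density gradient centrifugation and 4.20 in 50 µL.

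Motifs were searched on both strands in the same windows by 18 short consensus sequences, some of which overlap (a GGAANNGAA match can contain part of an IRF, PU.1 or STAT match). A match is a description of the letters and not a bound site. CTCF matches were found in 358 members (7.55%, 6.81 to 8.33%), against 1.46% (1.31 to 1.62%) of the intronic peaks of the 50 µL list alone, 0.0666% of windows 2 kb away and 2.68% of all 50 µL peaks. In the most significant of 4 equal classes of these 50 µL-only peaks it was 2.63%. Intergenic peaks found in both lists had 9.66% (8.84 to 10.5%) and promoter peaks found in both 2.04%. A share above that of all 50 µL peaks was thus seen at intergenic peaks too. PU.1 matches were found in 5.99% (5.33 to 6.70%), against 3.82% in 50 µL-only intronic peaks, 1.40% in windows 2 kb away and 3.78% of all 50 µL peaks. In the most significant class of the 50 µL-only peaks the PU.1 share was 5.82% (5.23 to 6.46%), close to that of the members. At intergenic peaks found in both lists it was 5.04% (4.44 to 5.69%).

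RUNX matches (TGTGGTT) were found in 8.31%, against 6.80% in 50 µL-only intronic peaks, 5.01% in windows 2 kb away and 6.22% of all 50 µL peaks. The octamer of OCT factors of B cells (ATGCAAAT) was found in 2.68%, against 1.43%, 1.10% and 1.52%. The E-box of E proteins (CAGCTG) was found in 12.7%, against 7.80%, 9.21% and 9.02%. NFAT (GGAAAANT) went the other way, at 2.42%, against 3.40%, 4.11% and 3.28%. At intergenic peaks found in both lists the shares were 6.39% for RUNX, 1.72% for the octamer, 10.6% for the E-box and 3.21% for NFAT. In the most significant class of the 50 µL-only intronic peaks they were 1.88% for the octamer and 9.04% for the E-box. RUNX matches were found there in 7.93% (7.24 to 8.66%), which overlaps the members' interval of 7.54 to 9.13%. The ETS consensus of housekeeping promoters (CCGGAAGT) was found in 0.401% of members and 4.72% of promoter peaks found in both lists. None of the 18 matched in 1706 members.

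**Figure D4:**
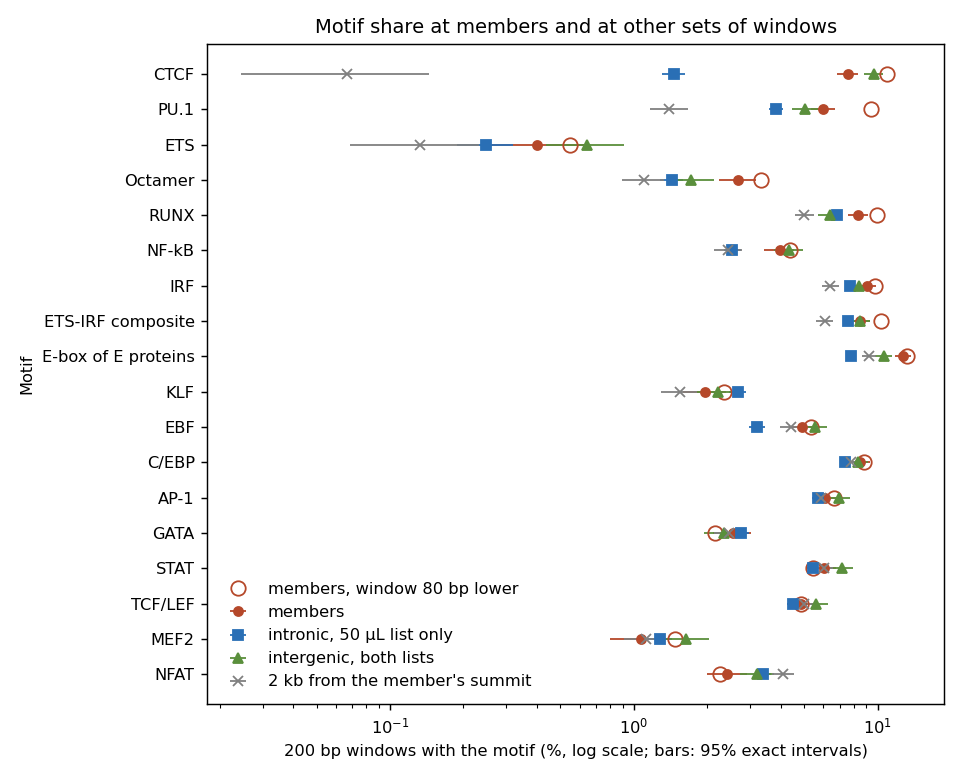
Share of 200 bp windows with a match to each of 18 motifs on a log scale, with exact 95% intervals, at members (filled circles), intronic peaks of the 50 µL list only, intergenic peaks of both lists and windows 2 kb from the members, ordered by the ratio of members to the last. Open circles are members with the window moved 80 bp to lower coordinates. CTCF shows the widest gap, 7.55% at members against 0.0666% at 2 kb.

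Members with a CTCF match differed from the others in their values. Their fold enrichment had a median of 6.12 without density gradient centrifugation and 4.27 in 50 µL, against 5.00 and 4.01 in the 4386 without a match, and the ratio of the lists a median of 1.43 against 1.25. Of the 358, 324 were higher without density gradient centrifugation, and of the 4386 without a match 3484 were. They were also narrower, 374 bp in the median in 50 µL against 477 bp. Members with a PU.1 match had a median ratio of 1.2. In 4 equal classes by fold enrichment without density gradient centrifugation, low to high, the CTCF share was 1.18%, 4.82%, 8.26% and 15.9%, and in 4 such classes in 50 µL it was 5.73%, 7.08%, 7% and 10.4%. Ordered by −log10 q in 50 µL instead, the CTCF share went the other way, at 10.1%, 8.85%, 6.16% and 5.06%, and the PU.1 share was 3.63%, 4.22%, 6.07% and 10.0%. Among the 100 most significant members the CTCF share was 20.0% (12.7 to 29.2%) without density gradient centrifugation and 4.00% (1.10 to 9.93%) in 50 µL. Both orders rank sites chosen from the same lists, and how the libraries' preparation, depth and cell make-up bear on this was not tested and cannot be told apart with 1 library each.

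CTCF matches were unevenly placed. They were found in 4.41% of first-intron members (61 of 1382, 3.39 to 5.63%) and in 8.83% of those in later introns (297 of 3362, 7.90 to 9.84%). The share was 12.5% in members whose host genes had no promoter peak in either list, against 6.87% where they had one. In B cell genes 0 of 36 members had a match, where 3 counts would be 8.33% and the exact upper limit is 9.74%. In shared blood factors 1 of 65 had a match, in leukocyte signalling genes 4 of 69, in broadly expressed large genes 4 of 38, in T cell genes 2 of 16 and in macrophage and monocyte genes 1 of 8. The exact intervals on such counts are wide, 1.55 to 38.3% for the T cell genes. PU.1 matches were found in 4 of 36 members in B cell genes and 3 of 65 in shared blood factors. First-intron members had PU.1 matches in 6.80% and later ones in 5.65%.

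The matches lay to one side of the summits. Of 573 CTCF matches within 300 bp of a member's 50 µL summit, 92.8% stood at lower coordinates, with a median of 79 bp, and of 671 PU.1 matches 78.5%, with a median of 86 bp. Measured from the summit without density gradient centrifugation, the medians were 58 bp and 62 bp at lower coordinates. Peaks outside the members did the same, with CTCF medians of 70 bp at intronic 50 µL-only peaks, 78 bp at promoter peaks and 80 bp at intergenic peaks, all at lower coordinates. Since the motifs were searched on both strands, this side is one of the genome's coordinates and not of the motif. The summits of promoter peaks found in both lists also lay, in 50 µL, a median of 26 bp above the TSS of plus-strand genes and 135 bp above that of minus-strand genes, which puts the middle of both strands at 80.5 bp. Without density gradient centrifugation these were 13 bp, 137 bp and 75 bp. In both lists the summits thus stood towards higher coordinates from the CTCF and PU.1 matches and from the middle of the TSS of both strands, by 58 to 86 bp at members and by 75 to 80.5 bp at promoters.

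**Figure D5:**
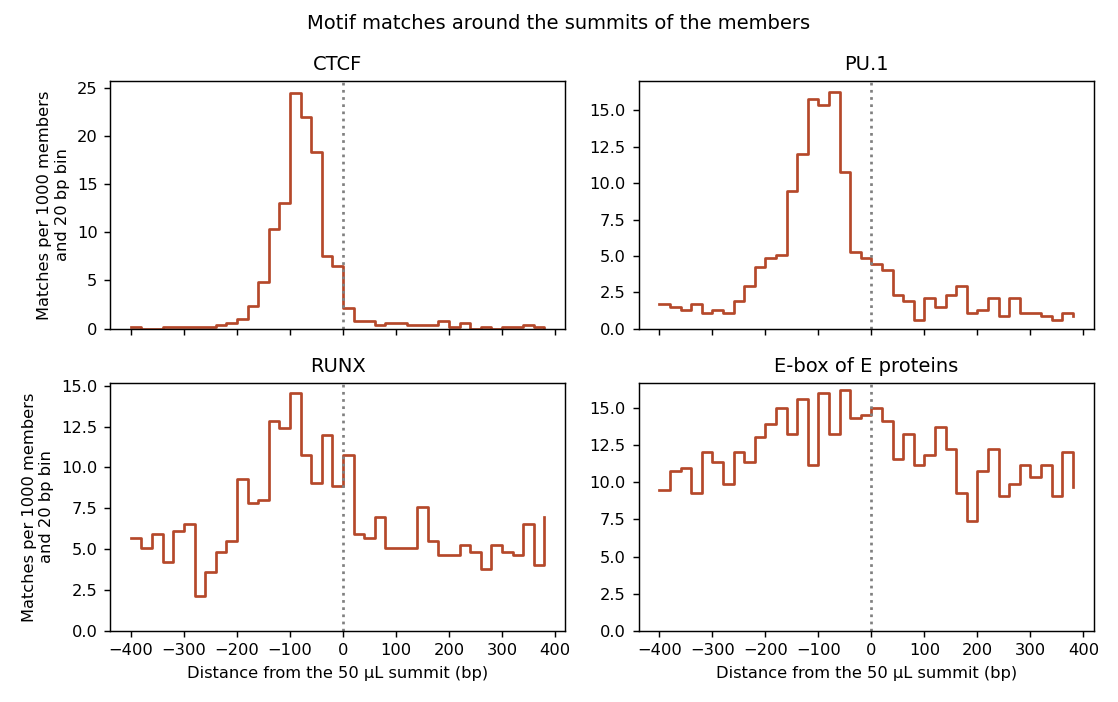
Matches of 4 motifs per 1000 members in bins of 20 bp against distance from the 50 µL summit in bp, negative at lower coordinates of the genome. CTCF matches peak at 24.5 per 1000 between 80 and 100 bp below the summit and drop to 2.11 just above it, PU.1 and RUNX matches peak on the same side, and the E-box runs between 7.38 and 16.2 per 1000.

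With windows moved by 80 bp to lower coordinates, an alternative chosen after seeing the data, CTCF was found in 10.9% of members (10.1 to 11.9%) and 1.97% of 50 µL-only intronic peaks, and PU.1 in 9.44% (8.63 to 10.3%) and 4.99%. RUNX was found in 9.93% of members. The order of the sets held for CTCF and PU.1: intergenic peaks of both lists had 14.3% and 7.82%. First-intron members had CTCF in 6.01% and later-intron members in 13.0%, the B cell genes in 1 of 36, and the 4 classes without density gradient centrifugation in 2.02%, 6.77%, 12.4% and 22.6%. PU.1 in the B cell genes was then 6 of 36 and in shared blood factors 8 of 65. Both motifs were more frequent in the moved windows of members than in the summit-centred ones. Why the summits are displaced was not tested.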

How the data were processed

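Peaks of 2 libraries of mouse FFPE spleen, 1 per condition, were analysed. The authors aligned reads to mm10 with BWA v0.7.17, removed duplicates and called peaks per library with MACS2 v2.1.2 (no model, q-value of 0.01), and took blacklisted stretches out by bedtools v2.30.0. Whether barcodes that failed the cell filter entered is not stated. The deposited lists give a fold enrichment (ratio of pileup to local background), −log10 p and −log10 q, a display score that was not used, and the summit. All depend on depth, which is unknown. Whether the 50 µL library had density gradient centrifugation is not given in the sources used here.

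Genes were those of GENCODE vM21, and sequence was GRCm38 from RefSeq, whose chromosome lengths fitted the peaks. The fold enrichment of a member in the other list is that of the peak with the largest overlap. Its host is every protein-coding gene around the summit. Introns are numbered in the shortest such gene, on a principal transcript where one covers the summit and otherwise on another transcript. The share of eligible bases in first introns was counted on a single transcript per gene. Members, gene lists, motifs and named genes were chosen with earlier results of these data known. Named are the 15 hosts with the most members, the hosts of the 10 most significant members of each list, up to 4 genes per list, genes the paper names and the 10 densest hosts with 5 or more members. Other names were chosen after their values were seen. Shares have exact (Clopper-Pearson) 95% intervals. The steps were tested on simulated data. Alternatives were other overlaps, thresholds, TSS distances, exon rules, list length and windows. Python 3.11.15 with numpy 2.4.6, pandas 2.3.3 and scipy 1.17.1 was used. Some members and genes that this rule names are not reported here.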

Additional observations from a re-analysis of the deposited data

Results flagged for a closer look

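The list without density gradient centrifugation held 353 intronic autosomal peaks that overlap no 50 µL peak. They are part of the intronic share of that list given above but of none of the comparisons of members. They were weaker than the 4816 that overlap one, with a median −log10 q of 7.18 against 9.45 and a median fold enrichment of 4.76 against 5.05. They lay in 330 genes. CTCF matches were found in 47 of them (13.3%, 9.95 to 17.3%). This share was not counted for the 4816. The members' CTCF shares above were counted around 50 µL summits, which these peaks lack, so nothing is read from a comparison. The most significant of the 353 was in Adk, adenosine kinase, with a fold enrichment of 8.96 and a −log10 q of 21.5, followed by sites in Picalm, Tnip3 and Tec.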

How the results depend on the processing

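No paired analysis was possible because each condition had 1 library. The 4744 members became 3128 with a reciprocal overlap of at least 50%, 2222 with a fold enrichment of at least 4 in both lists, 2813 with the 50 µL list reduced to the length of the other, and 2617 at more than 10 kb from a TSS. The 2786 host genes became 1743 with the fold enrichment limit and 1590 at more than 10 kb. The share in first introns became 23.4% with the fold enrichment limit, 25.4% at more than 10 kb, 27.1% with the TSS of protein-coding transcripts only and 30.6% with the whole peak free of exons. The median 50 µL fold enrichment became 3.98 with reciprocal overlap, 4.07 with the summit inside a peak of the other list, 5.00 with the fold enrichment limit, 4.69 with the reduced list and 4.07 at more than 10 kb. B cell genes with a member fell to 24.1% with the fold enrichment limit, 44.8% with the reduced list and 41.4% at more than 10 kb, and T cell genes to 15.6% with the fold enrichment limit and with the reduced list. CTCF matches were found in 9.05% with reciprocal overlap, 9.27% with the fold enrichment limit and 5.94% with the reduced list, and in 1.88% and 11.6% of windows of 100 and 400 bp. PU.1 matches were found in 7.50% with the reduced list and in 2.3% and 11.5% of the smaller and larger windows, and RUNX matches in 7.34% with the fold enrichment limit and in 4.22% and 15.1% of these windows. Added after seeing the data, moving the summit by 80 bp for the intron call and the window gave 4743 members, with CTCF at 10.9%, PU.1 at 9.45%, RUNX at 9.93% and repeats at 14.6%, and leaving out windows over 50% repeat gave 11.6% repeats by construction. Fewer peaks pass under stricter limits by construction. What else moves the values was not tested. Hosts by principal transcripts that are no read-through, also added, were 2601 genes. The depth of the lists is unknown and its part in the shares found in both was not tested, and at 1 library per condition no spread between replicates is known.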
